A study of Mus musculus with 6 samples.

Results

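Translation initiation factors load ribosomes onto messenger RNA, and their genes were followed here in leukemia cells of untreated mice and of mice fed doxycycline (dox) for 3 days to restore Pax5, a transcription factor that B cells need. The members are the protein-coding genes of the count table whose mouse symbol starts with Eif, without the Eif2ak kinases, which are 52 of 26286 genes. Of these, 49 had enough reads to be tested, and Eif2s3y, Eif4e1b and Eif5a2 did not.

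The 6 RNA sequencing libraries came from cells of 1 tri-transgenic leukemia, named A024, carried by Rag1 knockout mice, with 1 mouse per library as far as the series' design text tells. The untreated group holds 3 libraries of GFPhigh cells, and the dox group holds 3 libraries of GFPmid cells from mice given dox in their food for 3 days. All groups thus share the same leukemia, the same transgenes and a host that makes no mature B or T cells of its own but keeps its myeloid cells, and the replicates are mice carrying 1 leukemia rather than separate leukemias. Per the labels the cells were sorted from bone marrow, and the sort gate changed together with the treatment, so effects of Pax5, of the drug and of the gate cannot be told apart. As background from general knowledge of the model, a tetracycline-controlled short hairpin RNA against Pax5, made together with GFP, is shut off by dox. The labels used here do not name the 3 transgenes or their promoters, and the ages of the mice are not stated there.

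Initiation begins when eIF2 brings the initiator tRNA to the small ribosomal subunit, where eIF1, eIF1A and the many-subunit complex eIF3 help it to scan for a start codon. The messenger RNA is prepared by eIF4F, made of the cap-binding protein eIF4E, the scaffold eIF4G and the helicase eIF4A, and 4E-BP proteins block this assembly by occupying eIF4E. Then eIF5 and eIF5B allow the large subunit to join, and eIF2B recharges eIF2 with GTP for another round. Cells that grow and divide make these factors in large amounts, and several of their genes are known targets of Myc.

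Levels are given as CPM, the counts of a gene relative to the library's total after scaling between libraries with TMM, and levels of different genes are compared only as RPKM, which is CPM per kilobase of gene length. Total counts ran from 14185203 to 15612435 per library. Fold changes are dox over untreated on the log2 scale with their standard error (SE), from the quasi-likelihood test of edgeR fitted on 12275 genes, and a gene is called higher or lower at an adjusted p under 0.05. With 3 libraries a side an exact permutation test cannot give a p below 0.1. The leukemia cell markers Cd79a, Cd79b, Ebf1, Vpreb1, Igll1 and Cd24a summed to 4932 to 5026 CPM in untreated and 6454 to 6728 CPM in dox libraries, with 5 of the 6 called higher and Cd24a lower (-0.88, SE 0.08). The 6 T cell markers summed to at most 1.34 CPM, with Cd3e and Cd8a at 0. Of 7 neutrophil markers, 6 were tested and all 6 were called higher after dox, with a sum of 81.1 to 104 CPM in untreated and 103 to 486 CPM in dox libraries. All 6 were highest in dox replicate 1, as with S100a8 at 106, 22.9 and 57.1 CPM in dox replicates 1, 2 and 3. The groups overlapped for S100a8, S100a9 and Camp. Of 7 macrophage markers 6 were higher, and their sum went from 6.17 to 11.9 CPM in untreated up to 26.1 to 33.8 CPM in dox libraries. In both lists no marker was at 0 in all libraries. Markers of plasma cells summed to 169 to 359 CPM in untreated and 74.1 to 137 CPM in dox libraries, with Jchain and Sdc1 lower and Prdm1 higher (0.87, SE 0.12). Of 5 endothelial or stromal markers, 3 were tested and 2 were higher (Pecam1 and Col1a1), with sums of 94.7 to 103 and 129.8 to 160.5 CPM. Pecam1 made up most of both sums, with means of 97.5 CPM untreated and 145 CPM after dox, while Col1a1 had 0.80 and 1.77 CPM. The 5 genes that respond to cell handling summed to 75.4 to 99.3 and 149 to 237 CPM. Of these, 3 were higher (Jun, Hspa1a and Hspa1b), while Fos (0.31, SE 0.30) and Egr1 (0.13, SE 0.22) did not pass. The part of these lists in the results below was not tested. Pax5 itself measured 154, 93.5 and 105 CPM in untreated replicates 1, 2 and 3 and 227, 281 and 231 CPM in dox replicates 1, 2 and 3 (log2 fold change 1.07, SE 0.17, adjusted p = 0.000695), with no overlap between groups. Myc, whose product is known to bind promoters of growth genes, measured 289.7, 276 and 317 CPM untreated and 87.8, 116 and 90.1 CPM after dox (log2 fold change -1.59, SE 0.11, adjusted p = 1.03e-05), and Mki67, a marker of dividing cells, changed by -0.98 (SE 0.11).

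Initiation factor genes were mostly lower after dox. Of the 49 tested, 32 fell, 3 rose (Eif4ebp1, Eif4e3 and Eif3f) and 14 did not pass the test. Over all genes tested 53.6% were called, 26.6% lower and 27.0% higher, whereas 65.3% of the tested members were lower and 6.12% higher. The median log2 fold change was -0.37 for the members and 0.01 for all genes. The falls were moderate, between changes of -14.8% for Eif2b2 and -41.7% for Eif5a, and no member reached a 2-fold change, a size that 11.7% of all genes reached with a call. Well-expressed genes are called more often, and among the 40 members with a mean of at least 50 CPM 26 fell and 2 rose, which is 70% called, beside 33.7% lower and 28.6% higher (62.3% called) among all 4962 genes at that level. The groups did not overlap for 33 members that were lower and 6 that were higher after dox, together 39 of 49, beside 31.0% and 31.2% of all genes, together 62.2%. In 24 of the 32 genes that fell, dox replicate 3 held the highest level of the dox libraries, thus the smallest fall. How often this held among all genes that fell was not measured. Initiation factor genes together held 1.21% to 1.24% of all counts in untreated libraries and 0.971% to 1.04% in dox libraries. In bulk RNA, fewer cells of a type and less RNA per cell cannot be told apart.

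**Figure D1:**
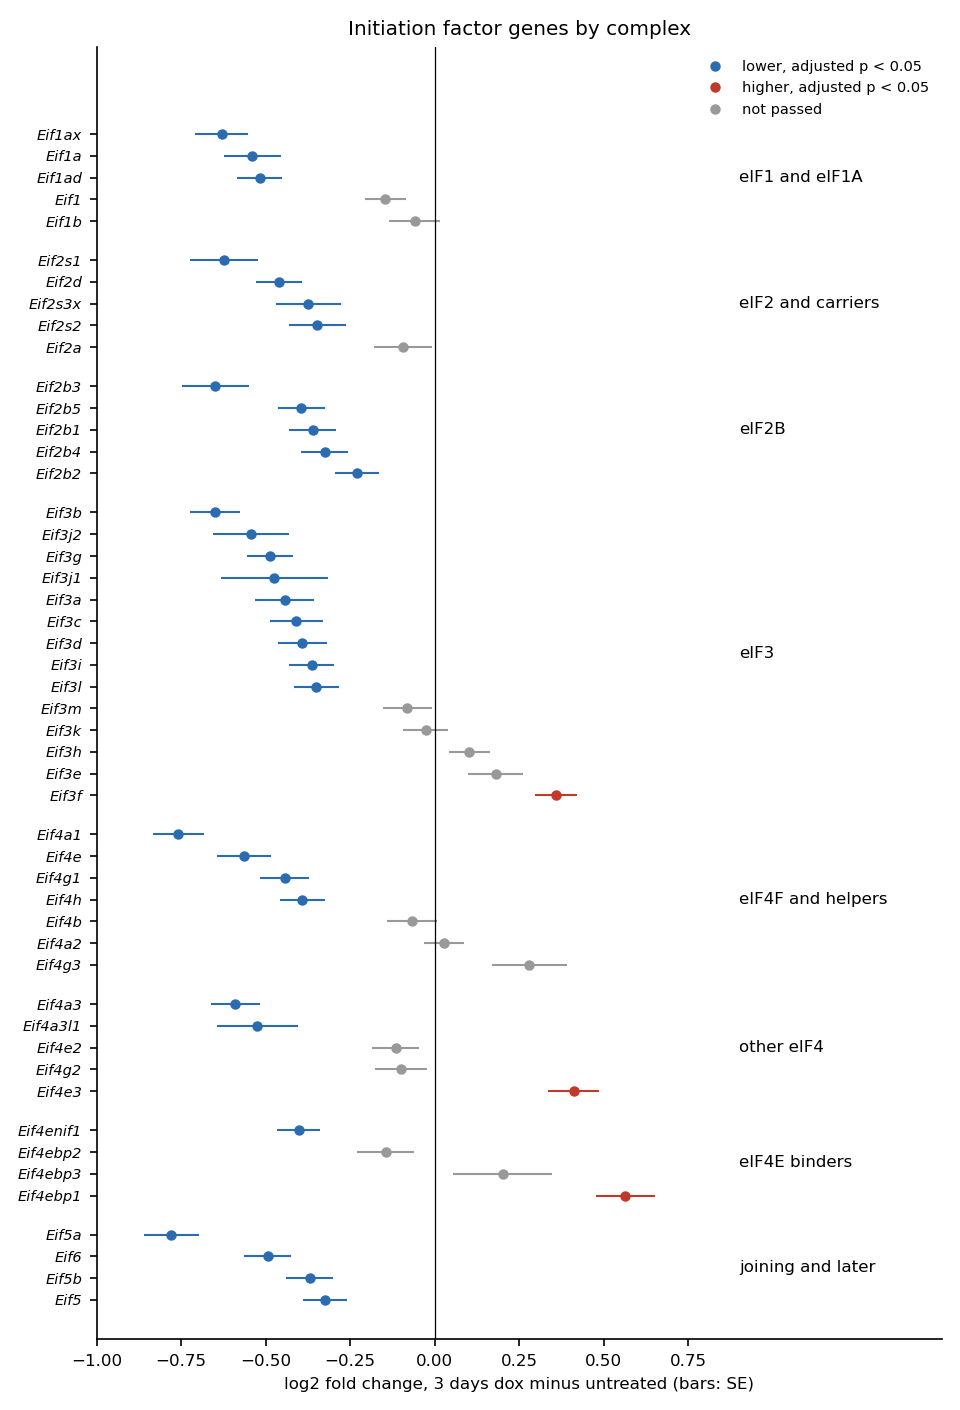
Log2 fold change of each tested initiation factor gene (horizontal axis, dox minus untreated, with SE from 3 libraries per group), grouped by complex. Most genes lie left of 0, down to -0.78 for Eif5a, while Eif3f, Eif4e3 and Eif4ebp1 lie right of it with a call.

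Among the scanning factors, the eIF1A genes and the related Eif1ad fell, and Eif1 and Eif1b did not pass. Thus 3 of 5 were lower (median -0.52), beside 26.6% of all genes. Eif1ax, the X-linked gene of eIF1A, which keeps the scanning ribosome open, measured 152, 147 and 152 CPM in untreated replicates 1, 2 and 3 and 91.5, 91.9 and 108 CPM in dox replicates 1, 2 and 3 (log2 fold change -0.63, SE 0.08, adjusted p = 0.000185). Its relative Eif1a had 104, 99.5 and 96.9 CPM untreated and 66.5, 63.3 and 76.7 CPM after dox (log2 fold change -0.54, SE 0.08, adjusted p = 0.000647). Both sets of libraries stood apart without overlap, and per length Eif1ax was the more abundant, at 163 ± 2.99 RPKM in untreated cells against 34.8 ± 1.23 RPKM for Eif1a (SD, n = 3). The ratio of Eif1ax to Eif1a per length was 4.55, 4.60 and 4.88 in untreated and 4.28, 4.51 and 4.39 in dox libraries, a log2 difference of -0.09 with exact permutation p = 0.1. Eif1ad, which encodes a protein with an eIF1A-like domain, had 113, 117 and 116 CPM untreated and 84.9, 77.3 and 79.6 CPM after dox (log2 fold change -0.52, SE 0.07, adjusted p = 0.000207). All 3 genes stood below the untreated range in every dox library, as did 31.0% of all genes. Eif1, which guards against wrong start codons, had 218, 213 and 217 CPM untreated and 201, 188 and 196 CPM after dox, so the groups did not overlap but the difference missed the threshold (log2 fold change -0.15, SE 0.06, adjusted p = 0.0686). Its paralog Eif1b had 47.7, 44.1 and 45.7 CPM untreated and 45.7, 41.0 and 45.3 CPM after dox (log2 fold change -0.06, SE 0.08, adjusted p = 0.532), with overlapping groups. The ratio of Eif1b to Eif1 per length was 0.290, 0.275 and 0.279 in untreated and 0.300, 0.289 and 0.307 in dox libraries, with overlap between groups (exact permutation p = 0.2, two-sided).

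The 3 tested subunit genes of eIF2 and the gene of the alternative carrier eIF2D fell, and Eif2a did not pass. Thus 4 of 5 were lower (median -0.37), beside 26.6% of all genes. Eif2s1, the alpha subunit whose phosphorylation slows translation under stress, measured 166, 162 and 170.2 CPM in untreated replicates 1, 2 and 3 and 101, 96.1 and 126 CPM in dox replicates 1, 2 and 3 (log2 fold change -0.62, SE 0.10, adjusted p = 0.000705). Dox replicate 3 stood above the other dox libraries yet below every untreated one. Eif2s2, the beta subunit, changed by -0.35 (SE 0.08) and Eif2s3x, the X-linked gene of the GTP-binding gamma subunit, by -0.37 (SE 0.10), with adjusted p of 0.00717 and 0.00901 (edgeR). The Y-linked copy Eif2s3y had 1 to 3 counts per library, 6 in all untreated and 5 in all dox libraries, which is at the floor of 3 counts a library used here as the limit of detection, and it was not tested. Eif2d, which can deliver tRNA to ribosomes without eIF2, had 63.5, 62.1 and 65.7 CPM untreated and 45.1, 46.6 and 47.4 CPM after dox (log2 fold change -0.46, SE 0.07, adjusted p = 0.000447). Eif2a, another alternative carrier, had 141, 140.1 and 133 CPM untreated and 124, 119 and 145 CPM after dox with overlapping groups (log2 fold change -0.09, SE 0.08, adjusted p = 0.373), and without dox replicate 3 it was called lower, at -0.19 with adjusted p = 0.0441, while without dox replicate 2 the value was -0.04 with adjusted p = 0.749 (edgeR). Per length, Eif2s3x was the least abundant of the 3 eIF2 subunit genes, at 9.70 ± 0.159 RPKM in untreated cells against 52.7 ± 1.35 for Eif2s1 and 41.1 ± 0.836 for Eif2s2. After dox Eif2s1 and Eif2s2 stood at 34.2 ± 5.08 and 32.3 ± 3.40 RPKM, which do not differ beyond their spread, and Eif2s3x at 7.48 ± 0.882 RPKM.

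The 5 genes of eIF2B, the exchange factor that reloads eIF2 with GTP, fell without exception, by a median of -0.36. Over all genes 26.6% were called lower. Eif2b3, the gamma subunit gene, had 26.4, 25.8 and 30.8 CPM in untreated replicates 1, 2 and 3 and 16.8, 18.4 and 17.7 CPM in dox replicates 1, 2 and 3 (log2 fold change -0.65, SE 0.10, adjusted p = 0.000522). Its fall was the deepest of the 5, and it was also the least abundant per length, at 6.88 ± 0.674 RPKM in untreated cells. Eif2b5, which encodes the catalytic epsilon subunit, had 126, 129.7 and 133 CPM untreated and 97.8, 92.5 and 105 CPM after dox (log2 fold change -0.40, SE 0.07, adjusted p = 0.00122). The regulatory subunit genes fell as well, Eif2b1 (alpha) by -0.36 (SE 0.07), Eif2b4 (delta) by -0.33 (SE 0.07) and Eif2b2 (beta) by -0.23 (SE 0.06), with adjusted p from 0.00209 to 0.0139 (edgeR). No library of one group reached the range of the other for any of the 5, which also held for 62.2% of all genes, 31.0% being lower.

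The subunit genes of eIF3, the largest initiation factor, changed in both directions. Of 14 genes, 9 fell, 1 rose and 4 did not pass (median -0.38), and log2 fold changes ran from -0.65 for Eif3b to 0.36 for Eif3f. Thus 64.3% were lower and 7.14% higher, beside 26.6% and 27.0% of all genes. Eif3b, a scaffold subunit, had 486, 527 and 536 CPM in untreated replicates 1, 2 and 3 and 312, 328 and 348 CPM in dox replicates 1, 2 and 3 (log2 fold change -0.65, SE 0.07, adjusted p = 9.91e-05). Eif3g, an RNA-binding subunit, had 156, 144 and 154 CPM untreated and 107, 113 and 103 CPM after dox (log2 fold change -0.49, SE 0.07, adjusted p = 0.000318). Eif3a, the largest subunit, and Eif3i, a WD-repeat subunit, changed by -0.44 (SE 0.09) and -0.36 (SE 0.07). As background, the products of Eif3a, Eif3b, Eif3g and Eif3i belong to the core that is shared with yeast, as does that of Eif3c, given below. The first 4 of these genes lay between -0.65 and -0.36.

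In the opposite direction, Eif3f, a subunit with an MPN domain, had 327, 311 and 326 CPM in untreated replicates 1, 2 and 3 and 415, 415 and 404 CPM in dox replicates 1, 2 and 3 (log2 fold change 0.36, SE 0.06, adjusted p = 0.00112), and the lowest dox library exceeded the highest untreated one. Eif3h, the other MPN subunit, had 239, 242 and 250.1 CPM untreated and 261, 257 and 266 CPM after dox, again without overlap, but did not pass (log2 fold change 0.10, SE 0.06, adjusted p = 0.183). Eif3e, a PCI-domain subunit, had 197, 191 and 186 CPM untreated and 209, 200.4 and 240.4 CPM after dox (log2 fold change 0.18, SE 0.08, adjusted p = 0.0857). The groups did not overlap, dox replicate 3 was the highest, and Eif3e was called higher, at 0.23 with adjusted p = 0.037 (edgeR), when dox replicate 2 was left out. Without dox replicate 3 the value for Eif3e was 0.09 with adjusted p = 0.276 (edgeR). Like Eif3f, Eif3h and Eif3e, 31.2% of all genes were higher without overlap. The small subunit genes Eif3k (-0.03, SE 0.07) and Eif3m (-0.08, SE 0.07) had overlapping groups. Eif3c (-0.41, SE 0.08), Eif3d, known to bind the cap of some messages (-0.39, SE 0.07), and Eif3l (-0.35, SE 0.07) fell. A sort of eIF3 into these sets was made after the values had been seen and was not tested, and comparing Eif3f with its neighbours rests on the values given.

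**Figure D2:**
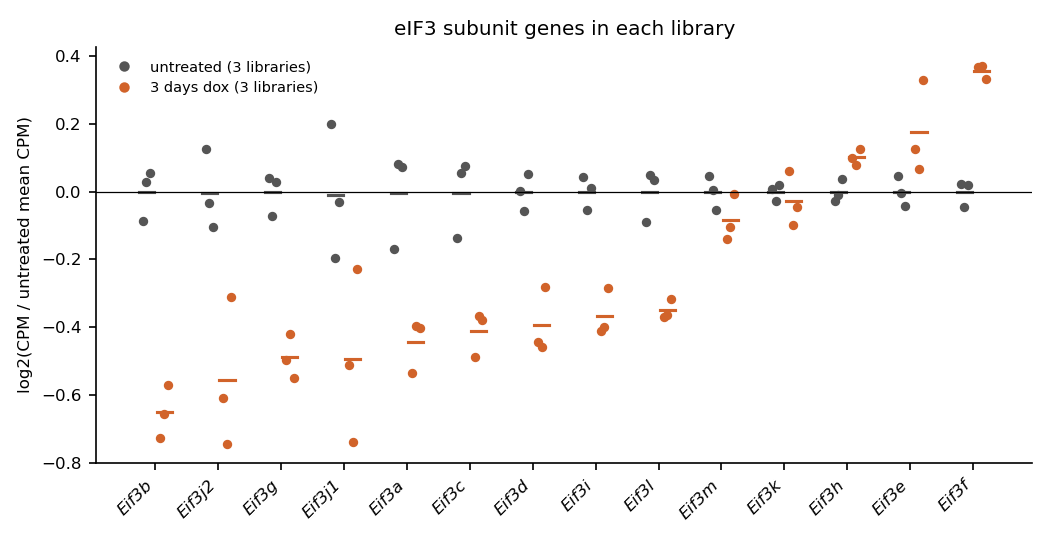
CPM of each eIF3 subunit gene in each library relative to its untreated mean (vertical axis, log2), with 3 untreated and 3 dox libraries as points and group means as bars. The genes run from Eif3b, which fell in all 3 dox libraries, to Eif3f, whose dox libraries all lie above the untreated ones.

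Per length, the subunit messages of eIF3 were also unequal. In untreated cells Eif3k and Eif3f measured 219.7 ± 3.64 and 213 ± 5.69 RPKM, Eif3a, Eif3c, Eif3g and Eif3l lay close to each other at 142 ± 13.5, 142 ± 11.2, 142 ± 6.07 and 142 ± 7.45 RPKM, and Eif3m measured 52.4 ± 1.86 RPKM (SD, n = 3). After dox Eif3f stood at 273 ± 4.10 RPKM and was the highest of the 14, while Eif3a, Eif3c, Eif3g and Eif3l stood at 104 ± 5.60, 107 ± 4.90, 101 ± 4.68 and 111 ± 2.31 RPKM. The j subunit is encoded by a pair of near-identical genes. Eif3j2 had 124, 111 and 106 CPM untreated and 74.5, 67.8 and 91.5 CPM after dox (log2 fold change -0.54, SE 0.11, adjusted p = 0.00311) and Eif3j1 had 17.5, 13.3 and 14.9 CPM untreated and 10.7, 9.12 and 13.0 CPM after dox (log2 fold change -0.48, SE 0.16, adjusted p = 0.0301). Of the 50-base stretches of the Eif3j2 transcript, 91.8% also occur in other annotated transcripts, nearly all in Eif3j1, so how reads were split between both is uncertain. Their ratio per length, 6.94, 8.17 and 6.93 in untreated and 6.82, 7.25 and 6.87 in dox libraries, overlapped between groups (exact permutation p = 0.5). The fall of Eif3j1 was not called when untreated replicate 1, untreated replicate 3, dox replicate 1 or dox replicate 2 was left out (adjusted p = 0.103, 0.0654, 0.0706 and 0.0806, edgeR).

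The core of eIF4F fell while the second gene of its helicase and of its scaffold did not pass the test. Thus 4 of 7 were lower (median -0.39), beside 26.6% of all genes. Eif4a1, which encodes the main helicase, had 491, 467 and 488 CPM in untreated replicates 1, 2 and 3 and 274, 269 and 312 CPM in dox replicates 1, 2 and 3 (log2 fold change -0.76, SE 0.08, adjusted p = 5.39e-05). Its paralog Eif4a2 had 235, 231 and 229 CPM untreated and 233, 237 and 239 CPM after dox (log2 fold change 0.03, SE 0.06, adjusted p = 0.722), so its groups overlapped. Eif4a1 shares 65.3% of its 50-base stretches with other annotated transcripts, most with a processed pseudogene, and its count is less certain than that of Eif4a2. Per length, Eif4a2 stood at 0.284, 0.293 and 0.278 of the level of Eif4a1 in untreated replicates 1, 2 and 3 and at 0.503, 0.523 and 0.452 in dox replicates 1, 2 and 3. That is a log2 change of 0.79, which does not depend on the scaling between libraries.

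Eif4e, the cap-binding subunit and a known target of Myc, had 153, 147 and 153 CPM in untreated replicates 1, 2 and 3 and 104, 91.3 and 111 CPM in dox replicates 1, 2 and 3 (log2 fold change -0.56, SE 0.08, adjusted p = 0.000358). Eif4g1, the main scaffold, had 743, 796 and 833 CPM untreated and 568, 578 and 598 CPM after dox (log2 fold change -0.44, SE 0.07, adjusted p = 0.000783). Eif4g3, its paralog, had 179, 225 and 229.6 CPM untreated and 247, 289 and 234 CPM after dox and missed the threshold (log2 fold change 0.28, SE 0.11, adjusted p = 0.0604), although the groups did not overlap. It was called higher with upper-quartile scaling (adjusted p = 0.0403), with the DESeq2 test (adjusted p = 0.033), with a replicate block (adjusted p = 0.0242) and without dox replicate 3 (adjusted p = 0.0449). The value for Eif4g3 was smaller without untreated replicate 1 (0.17, adjusted p = 0.192) and without dox replicate 2 (0.19, adjusted p = 0.161). The ratio of Eif4g3 to Eif4g1 per length was 0.237, 0.277 and 0.270 in untreated and 0.427, 0.490 and 0.383 in dox libraries, again with no overlap. Untreated replicate 1 held the lowest level of both Eif4g1 and Eif4g3 in its group.

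Of the cofactors that stimulate the helicase, Eif4h fell, with 567, 592 and 589 CPM untreated and 446, 426 and 460.0 CPM after dox (log2 fold change -0.39, SE 0.07, adjusted p = 0.000974), and Eif4b did not pass, with 501, 541 and 551 CPM untreated and 482, 503 and 535 CPM after dox (log2 fold change -0.07, SE 0.07, adjusted p = 0.459). Both are abundant messages, at 242 ± 5.78 and 138 ± 6.84 RPKM in untreated cells.

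The promoters of the members were searched for CACGTG, the E-box that Myc and its partner Max are known to bind, which reads the same on both strands. Promoter windows of 250 bases before the annotated start were taken from RefSeq (GRCm38.p6), where 40 of the 52 members had an entry. At least 1 CACGTG was found for 8 of the 38 tested members with an entry (21.1%) and for 10.01% of the 9103 tested genes with an entry. It was found for 5 of 27 members that fell (Eif4a1, Eif4e, Eif4g1, Eif4h and Eif5a), for Eif3f, the only riser with an entry, and for 2 of 10 that did not pass (Eif1b and Eif3k). A match is a description of the letters, not a bound site. The windows below are shown because they belong to the eIF4F core, to the deepest fall and to the riser of eIF3, with the E-box in capitals and the rest in lower case.
Eif4a1: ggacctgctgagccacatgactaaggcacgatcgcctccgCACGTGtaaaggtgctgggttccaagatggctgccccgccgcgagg
Eif4g1: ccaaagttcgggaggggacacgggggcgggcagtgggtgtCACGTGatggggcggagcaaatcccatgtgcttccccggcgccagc
Eif4e: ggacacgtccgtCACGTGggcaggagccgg
Eif5a: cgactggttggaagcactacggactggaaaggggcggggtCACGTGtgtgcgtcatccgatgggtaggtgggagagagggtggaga
Eif3f: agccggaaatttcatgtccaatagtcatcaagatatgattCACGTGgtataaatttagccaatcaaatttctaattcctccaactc
The Eif4a1 window lies at chr11:69672567-69672652, minus strand, the Eif4g1 window at chr16:20672633-20672718, plus strand, the Eif4e window at chr3:138527192-138527221, plus strand, the Eif5a window at chr11:69921415-69921500, minus strand, and the Eif3f window at chr7:108934307-108934392, plus strand (all GRCm38.p6, printed 5′ to 3′ on the strand of the gene). Their E-boxes begin 189, 54, 64, 74 and 68 bases before an annotated start. The Eif4e window overlaps an exon of another transcript of that gene in GENCODE M21, and the other 4 windows overlap no annotated exon of their gene. Eif4e has another E-box 228 bases before the same start, and Eif5a another one before a different annotated start. The genes shown were picked for having an E-box and for their change, so they cannot tell whether an E-box goes with a fall. This was not tested.

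Some messages of the translation machinery are known to begin with a terminal oligopyrimidine tract, a run of C and T right at the start that places their translation under mTOR, so the starts were searched as well. A C at the annotated start followed by at least 4 more C or T was found for 2 of the 38 tested members with an entry (5.26%). These were Eif3f and Eif2s3x, and the share over the tested genes with an entry was 2.94%. The 30 bases around both starts are shown with that run in capitals.
Eif3f: tctaggctctCTCTCTTTCTCggcaagatg
Eif2s3x: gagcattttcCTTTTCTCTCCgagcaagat
Their positions are chr7:108934405-108934434 on the plus strand and chrX:94212632-94212661 on the minus strand (GRCm38.p6), with 10 bases before the start and 20 from it. The run is 11 bases long in both genes, of which the first rose and the second fell. Annotated starts can miss the start used in these cells, so an absent run says only that these letters are not at that position.

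Among the other genes of the eIF4 family, 2 fell, 1 rose and 2 did not pass (median -0.12). These are 40% lower and 20% higher, beside 26.6% and 27.0% of all genes. Eif4a3, a helicase of the exon junction complex that marks spliced messages, had 112, 113 and 112 CPM in untreated replicates 1, 2 and 3 and 71.9, 71.1 and 81.1 CPM in dox replicates 1, 2 and 3 (log2 fold change -0.59, SE 0.07, adjusted p = 0.000163). Its near copy Eif4a3l1 changed by -0.52 (SE 0.12), at 7.40 ± 0.348 RPKM in untreated cells against 76.9 ± 0.401 RPKM for Eif4a3, and how reads were split between both is uncertain. Eif4e3, an eIF4E homolog that binds the cap in an unusual way, had 69.1, 62.5 and 60.9 CPM in untreated replicates 1, 2 and 3 and 84.7, 82.4 and 88.9 CPM in dox replicates 1, 2 and 3 (log2 fold change 0.41, SE 0.08, adjusted p = 0.00162), so every dox library was above the untreated range. Eif4e2, a homolog tied to repression of translation, had 112, 107 and 106 CPM untreated and 107, 95.2 and 97.9 CPM after dox with overlapping groups (log2 fold change -0.12, SE 0.07, adjusted p = 0.192). Eif4g2, a scaffold without the eIF4E-binding part that serves cap-independent initiation, had 1872, 1855 and 1789 CPM untreated and 1713, 1642 and 1793 CPM after dox (log2 fold change -0.10, SE 0.08, adjusted p = 0.297). It held the most counts of any member, and its groups overlapped. The homolog Eif4e1b, known from egg cells, had 0 counts in all 6 libraries, which allows up to 0.21 CPM in the least deep one (3 counts).

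The genes of the eIF4E-binding proteins and of a transporter of eIF4E gave 1 rise, 1 fall and 2 that did not pass (median 0.03). With 25% lower and 25% higher, the group was close to all genes (26.6% and 27.0%). Eif4ebp1, which encodes 4E-BP1, the repressor that mTOR releases from eIF4E, had 24.1, 24.2 and 27.3 CPM in untreated replicates 1, 2 and 3 and 40.3, 36.2 and 35.3 CPM in dox replicates 1, 2 and 3 (log2 fold change 0.56, SE 0.09, adjusted p = 0.000643). This was the largest rise among the members, 1.48-fold, and no untreated library reached the dox range. Eif4ebp2 had 145, 171 and 163 CPM untreated and 141, 156 and 136 CPM after dox (log2 fold change -0.15, SE 0.08, adjusted p = 0.176), with overlap. Eif4ebp3 did not pass (log2 fold change 0.20, SE 0.15, adjusted p = 0.273) and was called higher, at 0.36 with adjusted p = 0.0465, without untreated replicate 1. Its value was 0.10 without untreated replicate 2 (adjusted p = 0.628, edgeR). The transcript of Eif4ebp3 shares 65.5% of its 50-base stretches with another annotated protein-coding transcript, so its count is uncertain. Eif4enif1, the protein that carries eIF4E into the nucleus and into processing bodies, fell, with 166, 179.5 and 182 CPM untreated and 133, 131 and 134 CPM after dox (log2 fold change -0.40, SE 0.06, adjusted p = 0.000703).

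As ratios within a library, Eif4ebp1, Eif4ebp2, Eif4e2 and Eif4e3 were higher relative to Eif4e in every dox library than in any untreated one. Eif4e itself fell (-0.56), and of the 4 genes only Eif4ebp1 and Eif4e3 rose. Eif4ebp2 (-0.15) and Eif4e2 (-0.12) did not pass. Eif4ebp1 stood at 0.464, 0.485 and 0.525 of the level of Eif4e per length in untreated replicates 1, 2 and 3 and at 1.14, 1.17 and 0.937 in dox replicates 1, 2 and 3. The ratio was thus 2.19-fold higher after dox, a log2 change of 1.13, with no overlap. Eif4e3 over Eif4e was 0.519, 0.488 and 0.458 in untreated and 0.934, 1.03 and 0.921 in dox libraries. Eif4ebp2 over Eif4e was 1.53, 1.88 and 1.73 in untreated and 2.19, 2.76 and 1.98 in dox libraries, and Eif4e2 over Eif4e was 0.429, 0.427 and 0.407 and 0.603, 0.610 and 0.517. Thus Eif4e3 came close to the level of Eif4e per length after dox, while Eif4e2 stayed below it and Eif4ebp2 was above it in both groups. Eif4ebp1 over Eif4ebp2 was 0.304, 0.258 and 0.304 in untreated and 0.519, 0.422 and 0.474 in dox libraries, and Eif4g2 over Eif4g1 was 1.76, 1.63 and 1.498 and 2.11, 1.98 and 2.09. Of 11 ratios computed, 9 had no overlap between groups, each with exact permutation p = 0.1, the smallest that 3 against 3 allow, and adjusted p = 0.122 over the 11. Of all single genes 62.2% had no overlap, and the share over other gene pairs was not measured. Ratios that share Eif4e or Eif4g1 are not independent of each other, and ratios of messages are not ratios of proteins.

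**Figure D3:**
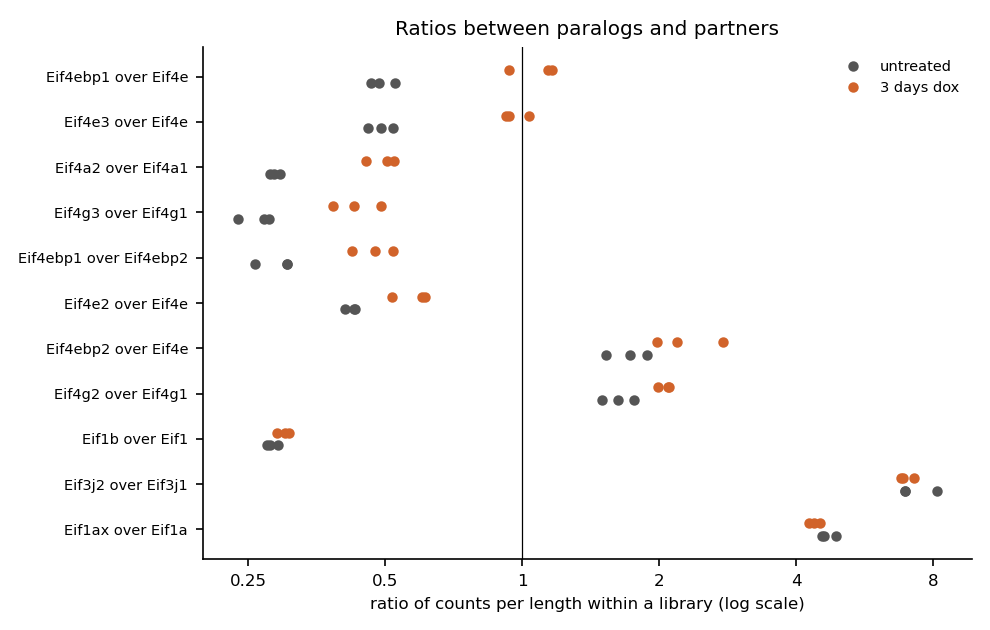
Ratios of counts per length between pairs of initiation factor genes within each library (horizontal axis, log scale), with 3 untreated and 3 dox libraries as points. Eif4ebp1 over Eif4e has a geometric mean of 0.491 in untreated and 1.08 in dox libraries, while Eif1b over Eif1 and Eif3j2 over Eif3j1 overlapped.

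Factors of subunit joining and later steps fell in all 4 cases tested (median -0.43), beside 26.6% of all genes called lower. Eif5a, whose product carries the amino acid hypusine and keeps ribosomes moving, had 1005, 946 and 971 CPM in untreated replicates 1, 2 and 3 and 525, 559 and 619.5 CPM in dox replicates 1, 2 and 3 (log2 fold change -0.78, SE 0.08, adjusted p = 6.23e-05). It was the most abundant member per length, at 483 ± 14.6 RPKM in untreated and 281 ± 23.8 RPKM in dox cells (SD, n = 3), and had the deepest fall of all members. Its paralog Eif5a2 had 5 counts in all untreated and 15 in all dox libraries, between 0 and 8 per library, and was not tested. Eif6, which keeps free large subunits apart and serves their assembly, had 115, 107 and 117 CPM untreated and 78.8, 78.1 and 83.7 CPM after dox (log2 fold change -0.49, SE 0.07, adjusted p = 0.000341). Eif5b, the GTPase that joins the subunits, changed by -0.37 (SE 0.07) and Eif5, which makes eIF2 hydrolyse its GTP, by -0.32 (SE 0.06). No dox library reached the untreated range in any of the 4, and 31.0% of all genes were likewise lower without overlap.

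**Figure D4:**
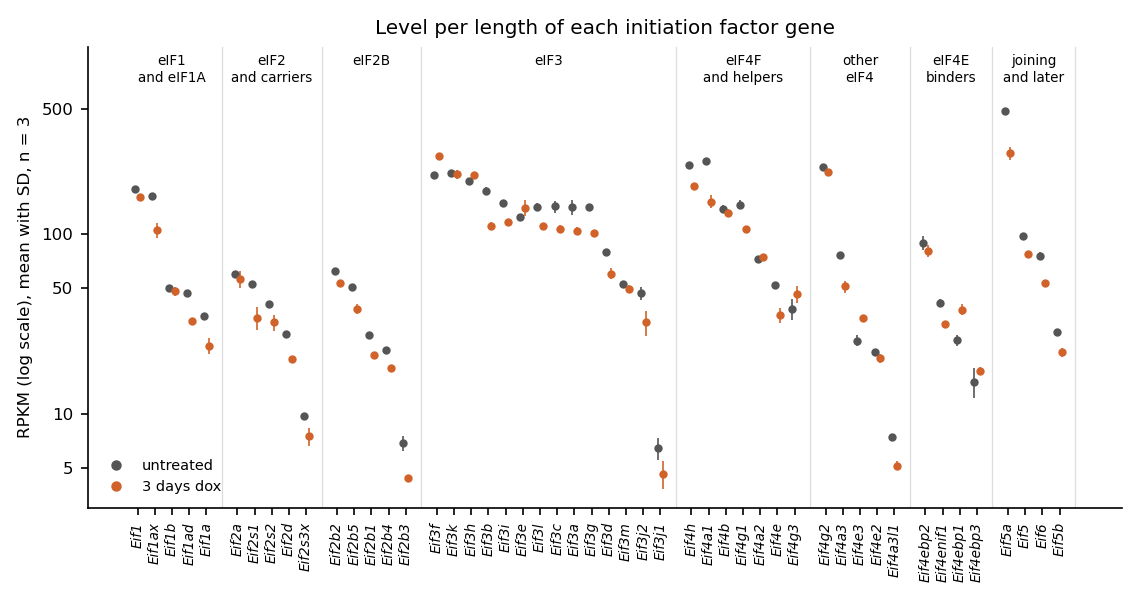
Level per length of each tested initiation factor gene (vertical axis, RPKM on a log scale, mean with SD, n = 3) in untreated and dox libraries, ordered by level within each complex. Eif5a lies highest and Eif3j1, Eif2b3 and Eif4a3l1 lowest.

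Summed per complex, the messages were lower in every dox library than in any untreated one, except for the eIF4E binders. The joining and later factors went from 685 ± 19.3 to 435 ± 29.6 summed RPKM (SD, n = 3), a difference of -36.4%, and Eif5a alone went from 483 ± 14.6 to 281 ± 23.8 RPKM. The eIF4F group went from 946 ± 22.2 to 731 ± 27.1 and the eIF1 and eIF1A group from 472 ± 6.61 to 370.3 ± 17.1. For eIF2 with its alternative carriers the sum was 191 ± 2.27 and 150.5 ± 15.1, and for eIF2B 169.7 ± 1.11 and 135 ± 2.49. The sum of eIF3 differed by -10.5%, from 1832 ± 31.1 to 1639.6 ± 36.7. The other eIF4 genes summed to 369 ± 7.97 and 332 ± 14.5, and the eIF4E binders to 172 ± 7.50 and 168 ± 6.37, with overlapping libraries. These sums are descriptions without a test.

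Genes that act on initiation factors without belonging to the Eif family were counted from lists. The kinases and phosphatase subunits that set the phosphorylation of eIF2 alpha had 4 of 6 genes higher and a median log2 fold change of 0.39, with 27.0% of all genes called higher. Left-out libraries gave 2 to 4 higher, with 2 without dox replicate 1 or untreated replicate 2. Eif2ak3, the kinase PERK of the endoplasmic reticulum, had 108, 94.7 and 88.6 CPM in untreated replicates 1, 2 and 3 and 225, 205 and 218 CPM in dox replicates 1, 2 and 3 (log2 fold change 1.15, SE 0.08, adjusted p = 1.09e-05), and Eif2ak4, the amino acid sensor GCN2, changed by 0.56 (SE 0.11). Eif2ak1 (0.04) and Eif2ak2 (0.19) did not pass. The phosphatase subunit genes Ppp1r15a (0.57, SE 0.16) and Ppp1r15b (0.22, SE 0.07) were higher too. Ppp1r15a was not called without dox replicate 1 or without untreated replicate 2 (adjusted p = 0.0631 and 0.063, edgeR), and of the 6 leave-one-out fits Ppp1r15b was called in the one without dox replicate 2 only (adjusted p from 0.0586 to 0.0954 in the others).

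Of 15 partners and repressors of the cap complex, 8 fell and 3 rose, beside 26.6% lower and 27.0% higher over all genes, with a median of -0.23. Pdcd4, an inhibitor of the eIF4A helicase, had 82.5, 103 and 78.1 CPM in untreated replicates 1, 2 and 3 and 182, 235 and 181 CPM in dox replicates 1, 2 and 3 (log2 fold change 1.18, SE 0.13, adjusted p = 8.72e-05), and no library overlapped. Mknk1, a kinase of eIF4E, rose by 0.68 (SE 0.07), and Gigyf2, a partner of Eif4e2, by 0.22 (SE 0.07). The call of Gigyf2 was lost when any 1 of the 6 libraries was left out (adjusted p from 0.0503 to 0.111, edgeR). Larp1, which binds messages with an oligopyrimidine start, changed by -0.52 (SE 0.06). Pabpc1, the main poly(A)-binding protein, changed by -0.25 (SE 0.09), at adjusted p = 0.049 (edgeR), and did not pass without untreated replicate 2, untreated replicate 3 or dox replicate 1 (adjusted p = 0.167, 0.125 and 0.144). Pabpc4, a relative of Pabpc1 (-0.23, SE 0.07), lost its call without the same 3 libraries, and Ddx3x, a helicase that aids initiation (-0.28, SE 0.08), without dox replicate 1 or untreated replicate 2. The list thus had 5 lower and 2 higher without dox replicate 1 and likewise without untreated replicate 2.

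The remaining lists were small. Of 8 genes of ribosome recycling, reinitiation and start codon control, 4 fell by edgeR and 5 by DESeq2, beside 26.6% of all genes lower by edgeR (median of the 8 -0.27). By edgeR these were Bzw2 (-0.86, SE 0.09), a mimic of eIF5, Denr (-0.51, SE 0.08), a reinitiation factor, the recycling ATPase Abce1 (-0.38, SE 0.07) and Bzw1 (-0.30, SE 0.08), and the other 4 did not pass. Dohh, which completes the hypusine of eIF5A, changed by -0.48 (SE 0.10), while Dhps, the enzyme of the first step, did not pass (-0.16, SE 0.08). All 3 genes of mitochondrial initiation, Mtif2 (0.08), Mtif3 (0.09) and Mtfmt (0.16), did not pass in edgeR, DESeq2 or limma voom, and 0 had an unadjusted p under 0.05. Among elongation and release factors, 9 of 10 genes were tested, with a median of -0.16. Of these, 4 fell (Eef1d by -0.48 (SE 0.06), Eef1e1 by -0.55 (SE 0.11), Etf1 by -0.53 (SE 0.08) and Gspt1), 1 rose (Eef2k) and 4 did not pass, 5 of 9 called beside 53.6% over all genes. Gspt1, which encodes the release factor eRF3a, had 356, 354 and 361 CPM untreated and 162, 155 and 173 CPM after dox (log2 fold change -1.13, SE 0.07, adjusted p = 4.75e-06), a deeper fall than that of any initiation factor gene. Eef2k, the kinase that slows elongation by acting on eEF2, had 179, 188 and 194 CPM untreated and 307, 296 and 282 CPM after dox (log2 fold change 0.66, SE 0.07, adjusted p = 5.29e-05). The elongation factor genes Eef1a1 (0.05, SE 0.09), Eef1b2 (-0.14, SE 0.09), Eef1g (-0.16, SE 0.08) and Eef2 (0.18, SE 0.10) did not pass.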

How the data were processed

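RNA was sequenced from sorted leukemia cells of 3 untreated mice and 3 mice on dox, per the labels' protocols. The deposited counts are whole reads per Entrez gene, made by the authors with CASAVA 1.8.2, featureCounts and mm9, per the submitters' processing notes, and gene lengths are deposited in the same table. Strand handling is not given in the sources used here. The 6 deposited sample files hold the same counts as the series table. Entrez identifiers were matched to names for 24176 of 26286 genes.

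Counts of 12275 genes that passed filterByExpr (minimum count 10), holding 99.93% of all counts, were TMM scaled and compared with the edgeR 4.0.16 quasi-likelihood test (R 4.3.3) with Benjamini-Hochberg adjustment over all of them. Groups follow the sample titles, and the method was tested on simulated counts. Ratios within a library used counts per length with 0.5 counts added and two-sided exact permutation tests. Level floors are 3 counts and cover counting error only. Sequence sharing was measured as 50-base stretches of GENCODE M21 transcripts, and promoter sequences are RefSeq GRCm38.p6. Since the counts use mm9, no coordinates were joined. The p-values measure the spread between mice carrying 1 leukemia.

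The members, complexes and lists were chosen with earlier results of these data known. A leukemia cell marker of those lists is not reported here, and its list was summed without it. Every member may be named. Library values are given for the 3 members of smallest p in each complex (2 where under 6 were tested), for ratio pairs, and in other lists for the 3 genes of smallest p as fold changes or levels. Genes behind counts of 5 or fewer are named, and a few more were added after their values were seen. Alternatives were other scalings, filters and tests (DESeq2 1.42.0, limma 3.58.1 voom), a replicate block, a minimum fold, and leaving out each library.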

Additional observations from a re-analysis of the deposited data

How the results depend on the processing

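Of 35 called initiation factor genes, 34 kept their call in all 14 settings other than the minimum fold, and Eif3j1 lost it in 4. Leaving out each library gave 31 to 33 members lower and 3 to 4 higher. With a minimum fold of 1.5 (edgeR), 2 members were lower, Eif4a1 and Eif5a, and 0 higher (the same 2 and 0 at an unadjusted p under 0.05), beside 670.0 lower and 928 higher among all genes. By complex that setting left 1 lower in eIF4F, 1 in the joining and later factors, and 0 lower among the scanning factors, eIF2, eIF2B, eIF3, the other eIF4 genes and the eIF4E binders, and 0 higher in eIF3, the other eIF4 genes and the eIF4E binders. In eIF4F 1 gene was higher, Eif4g3, under upper-quartile scaling, the DESeq2 test and the replicate block, against 0 as reported. Over the leave-one-out fits, the higher genes numbered 1 to 2 in eIF3, 0 to 1 in eIF4F and 1 to 2 among the eIF4E binders. Summed CPM in place of RPKM gave log2 changes of -0.26 for eIF3 (from -0.16), -0.31 for eIF4F (from -0.37) and -0.18 for the eIF4E binders (from -0.03), since long genes weigh more. Libraries with the same replicate number had correlated deviations of 0.30, 0.28 and -0.04, and pairs of different numbers ran from -0.33 to 0.02. Whether libraries of one number share more than the number was not tested. The replicate block gave 3356 genes lower and 3434 higher among all genes, against 3266 and 3316 as reported. The median over all genes stayed between 0.01 and 0.04 in every scaling. At this depth Eif2s3y, Eif4e1b and Eif5a2 had too few counts to be tested, and 3 libraries a group cannot give an exact p under 0.1.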

Other observations

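The count table also holds 4 Eif-named entries that are no protein-coding genes and were left out of the members. The pseudogene Eif1-ps1 had 337, 356 and 363 counts in untreated replicates 1, 2 and 3 and 316, 306 and 335 counts in dox replicates 1, 2 and 3. For 24 of the 51 members matched to annotated transcripts no 50-base stretch was shared with another gene, 13 shared at least 10% and 3 shared at least 50%, namely Eif3j2, Eif4a1 and Eif4ebp3. Eif1 shared 31.6%, Eif2s3x 36.2% and Eif3m 37.3% of their stretches with other annotated transcripts, and how reads of such stretches were counted was not tested.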
